A study of Mus musculus with 18 samples.

Results

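The major urinary proteins (Mup genes) were followed in the livers of Young and Old male mice. The 10 members were Mup1, Mup2, Mup3, Mup7, Mup10, Mup11, Mup14, Mup17, Mup20 and Mup21, taken by symbol from a table of 18946 genes, and all 10 were in it. Livers of C57BL/6J mice, an inbred strain widely used in the laboratory, were sequenced from 8 Young mice of 6.18 months and 10 Old mice of 19.76 months per the labels (Old mice are 20 months old in the design text and 21 in the growth protocol). Every mouse had fasted for 14 h and then had an insulin clamp of 150 min, an infusion of insulin with enough glucose to keep the blood level steady, so that no liver without insulin was compared. The mice were separate animals of one sex and one strain. RNA was extracted with the AllPrep kit from 3 Young and 5 Old mice and with the RNeasy kit from 5 Young and 5 Old mice.

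Major urinary proteins are small secreted lipocalins, barrel-shaped carriers of fatty or volatile molecules. Hepatocytes make them, the kidney passes them into urine, and there they release pheromones slowly and carry the scent identity of the animal. Their genes lie side by side in a cluster on mouse chromosome 4, and male liver makes far more of them than female liver, because pulses of growth hormone act through the receptor Ghr, the kinase Jak2 and the transcription factor Stat5b. Mup20, also called darcin, is the male pheromone that attracts females and makes them remember a place. The other members carry ligands in the same way, and single roles are less well separated.

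The copies are so alike that a short read often cannot be given to a single gene, which bears on every single-member value that follows. Of all stretches of 100 bases in the GENCODE M21 transcripts of a member, 97.8% of those of Mup3, 95.5% of those of Mup21 and 61.2% of those of Mup20 were found in no other gene. The share was 44.3% for Mup1, 40.6% for Mup17, 23.9% for Mup7, 21.8% for Mup11, 19.4% for Mup14, 14.6% for Mup10 and 2.3% for Mup2. The sources used here do not say how reads that match several genes were counted, so the members of the near-identical group (Mup1, Mup2, Mup7, Mup10, Mup11, Mup14 and Mup17) are uncertain one by one, and the family sum is given beside them. The coding sequences of these 7 were 98.9% to 99.4% identical to their nearest member, against 94.7% for Mup3 and Mup21 and 91.3% for Mup20. A stretch of 90 coding bases, aligned to bases 147 to 236 of Mup17, shows this, with capitals marking bases that differ from Mup17; the sequence under Mup1 is the same in Mup2 and Mup11.
Mup17: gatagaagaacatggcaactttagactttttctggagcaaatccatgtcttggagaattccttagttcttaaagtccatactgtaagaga
Mup7: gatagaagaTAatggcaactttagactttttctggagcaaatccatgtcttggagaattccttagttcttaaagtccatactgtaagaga
Mup1: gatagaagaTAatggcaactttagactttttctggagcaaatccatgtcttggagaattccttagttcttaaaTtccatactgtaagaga
Mup14: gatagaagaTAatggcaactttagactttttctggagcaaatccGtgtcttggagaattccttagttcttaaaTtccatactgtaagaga
Mup20: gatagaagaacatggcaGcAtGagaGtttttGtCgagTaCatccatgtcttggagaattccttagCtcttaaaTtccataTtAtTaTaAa
Mup3: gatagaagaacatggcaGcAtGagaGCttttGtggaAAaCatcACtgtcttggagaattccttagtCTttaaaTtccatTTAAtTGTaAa
Mup7 differed from Mup17 at 2 of the 90 bases, Mup1 at 3 and Mup14 at 4, whereas Mup20 differed at 15 and Mup3 at 22.

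Levels of the members were correlated across the 18 livers, so the DNA before their start sites is shown for a near-identical pair and for a divergent member. RefSeq's table (build GRCm38.p6) held the region before the start of 8 of the 10 members, all but Mup1 and Mup20. Each sequence is the 250 bases before the annotated start on the minus strand, 5′ to 3′, with capitals marking TATATAA and ATCAAT. These letters were picked with the promoters in view, so their counts describe and test nothing.
Mup17, chr4:61595833-61596082, minus strand: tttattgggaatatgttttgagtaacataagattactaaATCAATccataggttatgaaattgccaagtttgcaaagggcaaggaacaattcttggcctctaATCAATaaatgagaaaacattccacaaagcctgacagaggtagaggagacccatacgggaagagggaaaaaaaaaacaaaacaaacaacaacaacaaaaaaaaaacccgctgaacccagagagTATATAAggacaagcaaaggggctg
Mup14, chr4:61303999-61304248, minus strand: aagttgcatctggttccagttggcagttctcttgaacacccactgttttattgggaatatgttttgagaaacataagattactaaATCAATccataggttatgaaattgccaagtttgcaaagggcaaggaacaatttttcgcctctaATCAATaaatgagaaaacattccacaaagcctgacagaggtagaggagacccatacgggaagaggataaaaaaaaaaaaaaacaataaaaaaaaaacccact
Mup3, chr4:62087318-62087567, minus strand: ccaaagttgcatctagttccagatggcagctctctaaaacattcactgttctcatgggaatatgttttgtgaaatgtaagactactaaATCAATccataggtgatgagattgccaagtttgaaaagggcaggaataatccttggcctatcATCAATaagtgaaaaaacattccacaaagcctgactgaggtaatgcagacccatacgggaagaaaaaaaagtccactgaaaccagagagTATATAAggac
On either strand, ATCAAT was present 2 times in each of the 8 members, and 6.97% of 27025 promoters of the same length held it at least once. TATATAA, the letters of a TATA-like element, was in 5 of 8 members and in 3.26% of all promoters. TTCNNNGAA, the letters that Stat5 factors are known to prefer, was in 0 of 8 and in 7.18% of all promoters; that says only that these letters are not in these windows. TGTTCT, the letters of a glucocorticoid receptor half-site, was in 2 of 8 and in 16.2% of all promoters. Annotated starts differ between the members, so the windows do not cover the same aligned bases.

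Recovered reads came to 85790735 to 127487820 per library over the listed genes, and levels are given as TPM, that is reads per gene length brought to a fixed total per library, scaled between libraries for composition. Hepatocyte markers were high in every liver: the 12 summed to 120772 to 175264 scaled TPM in Young and 133657 to 185902 in Old livers other than Old replicate 14, which had 212281. Old replicate 14 stood apart. All 10 members had their lowest level there, while the hepatocyte marker sum was the highest of all 18. Of the 12 markers, 4 were at their highest there (Alb, Apoa1, Trf and Ahsg) and 3 at their lowest (Serpina1c, Cps1 and Asgr1): Alb had 112006 scaled TPM, and Serpina1c had 1583 against at least 3123 in every other liver. In the same mouse Cyp2a4, a cytochrome typical of female liver, reached 3715 scaled TPM against 0.218 to 22.0 in the other Old livers. Other genes known to be higher in female liver went both ways there. Cyp2b9 (257.6 against at most 118.4) and Abcd2 (101.4 against at most 44.8), for example, were the highest of the Old livers. Cyp4a14 (302 against at least 892.2) and Acot3 (12.2 against at least 20.9) were the lowest. Cholangiocyte markers summed to 113.3 there (7 of 8 listed in the table) against 24.7 to 70.7 in the other Old and 27.8 to 66.3 in Young livers. The markers did not move together. Spp1 (67.4), Anxa13 (24.2), Sox9 (19.1) and Cldn7 (1.27) were higher there than in any other liver. Krt19 (0.607), Krt7 (0.406) and Epcam (0.339) lay within the range of the other Old livers. B and plasma cell markers summed to 37.1 against at most 29.3. Of the 8 marker lists limma called Jchain alone (log2 difference 1.44, limma adjusted p = 0.0228). The part of other cell types in the low Mup levels was not tested. The main results on the Mup members are given with and without this mouse. In bulk liver, fewer hepatocytes and less RNA per hepatocyte cannot be told apart.

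**Figure D1:**
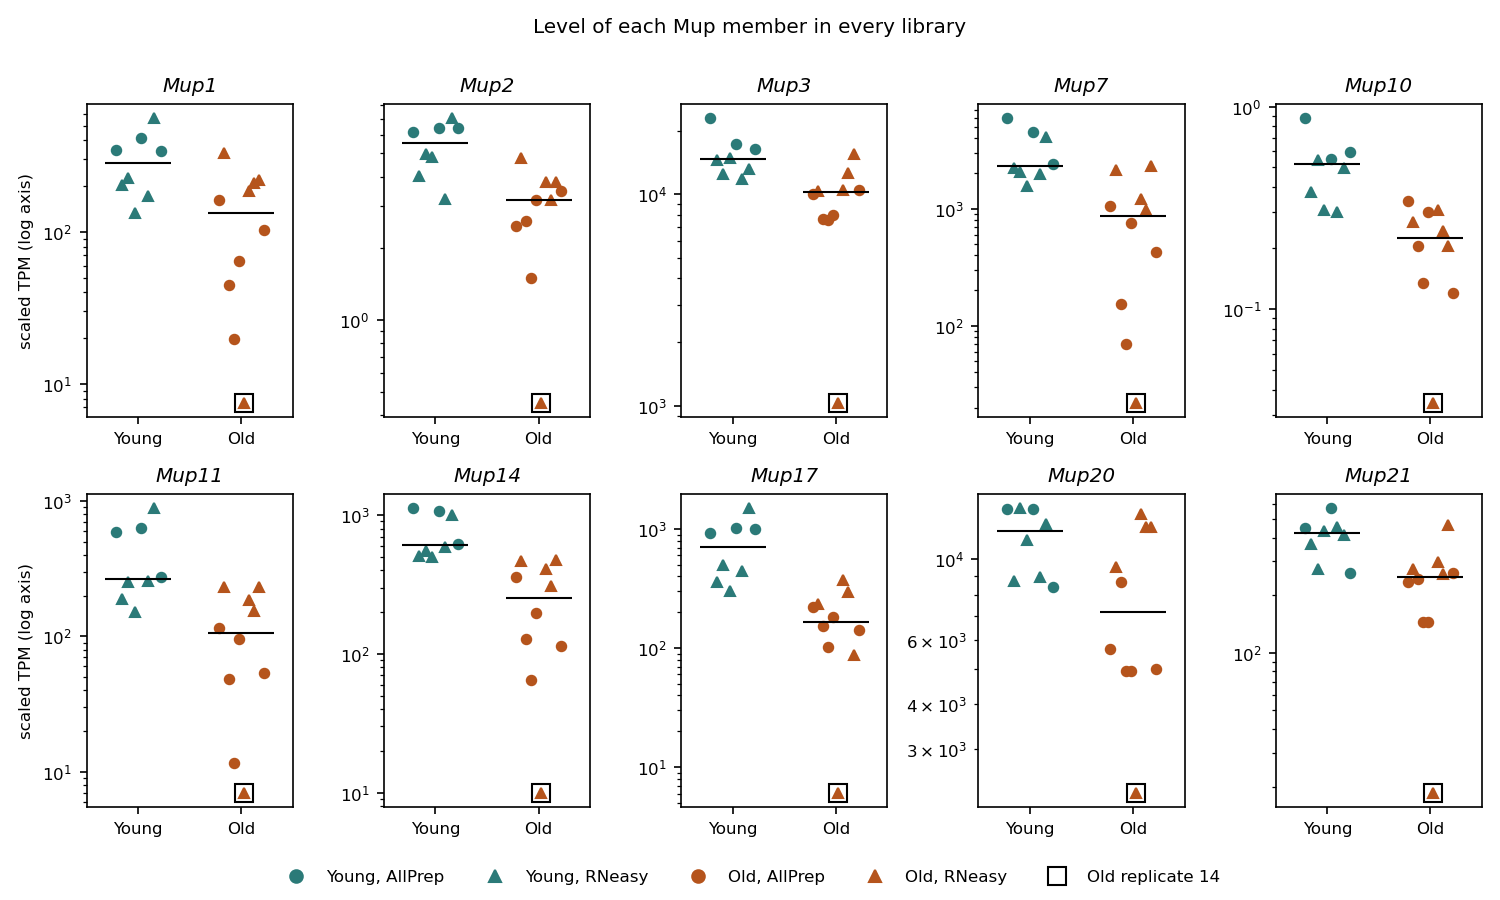
Level of each of the 10 members in scaled TPM (log axis) in every library, Young on the left and Old on the right of each panel, with circles for AllPrep and triangles for RNeasy and a line at the median. Old replicate 14 (boxed) is lowest in all 10 panels, and in the Mup14 panel no Old library reaches the lowest Young one.

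The 10 members made up 2.65% to 4.13% of all deposited TPM in Young livers, with a median of 3.1%, and 0.366% to 3.3% in Old livers, with a median of 1.66%. The summed level of the 10 members was 32559 ± 7036 scaled TPM in Young livers (SD, n = 8) against 19086 ± 8248 in Old livers (SD, n = 10). The lowest, median and highest sums were 24629, 29959 and 46000 in Young and 3373, 17489 and 31558 in Old. In 7 of 10 Old livers the sum was below the lowest Young value, and the other 3, all RNeasy libraries, lay within the Young range. The difference in mean log2 sum, Old minus Young, was -0.94 ± 0.34 (SE from the pooled SD), and -0.68 without Old replicate 14; no p is given for a sum over members that were chosen with results known. Counting the recovered reads alone, the family took 1.35% ± 0.267 of reads in the 8 Young and 0.8% ± 0.367 in the 10 Old libraries (SD). The read count of the family does not depend on how reads were divided among the 10 members. The TPM sum does to some degree, since TPM divides reads by a length that differs between members. In Young replicate 1, for example, Mup1 had 18273 reads and 347.9 scaled TPM, and Mup21 had 16244 reads and 446.9 scaled TPM. Reads given to other Mup genes, or discarded for matching several copies, would be missing from both.

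**Figure D2:**
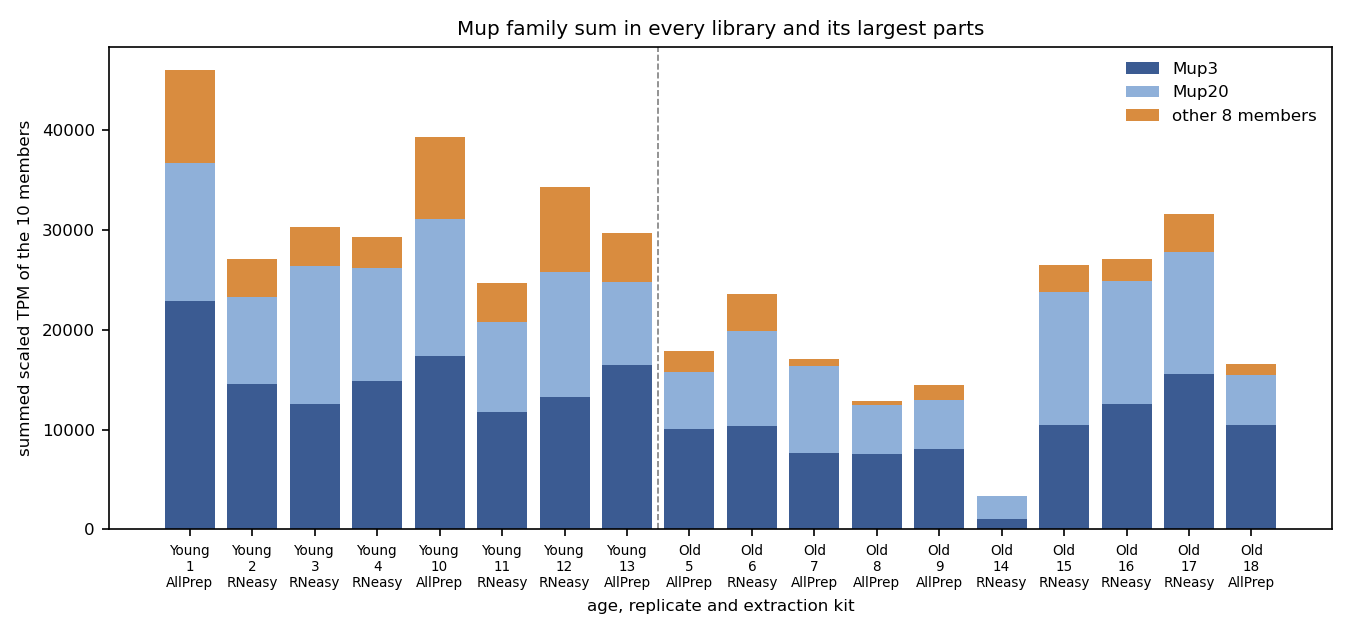
Summed scaled TPM of the 10 members in every library, stacked as Mup3, Mup20 and the other 8 members, with age, replicate number and kit under each bar. The 5 AllPrep libraries of Old mice stand at 12893 to 17894, Old replicate 14 at 3373, and the remaining 4 Old RNeasy libraries at 23585 to 31558.

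Mup3 and Mup20 carried most of the family's RNA. Together they made 83% ± 4.7 of the family sum in Young livers (SD, n = 8) against 91.6% ± 4.32 in Old livers (SD, n = 10), with ranges of 75.3% to 89.4% and 84.4% to 97.9% that overlap. The other 8 members made 17% ± 4.7 in Young and 8.44% ± 4.32 in Old. Shares within the family do not depend on the scaling between libraries. The share of Mup7 was 9.1% ± 2.69 in Young and 4.04% ± 2.93 in Old, that of Mup17 2.26% ± 1.12 and 0.899% ± 0.406, and that of Mup14 2.25% ± 0.444 and 1.18% ± 0.602. The share of Mup20 was 35.3% ± 5.5 in Young and 42.7% ± 11.2 in Old, or 40% ± 7.54 in Old without Old replicate 14, in which it was 67.3%. Mup3 held nearly equal shares, 47.7% ± 5.87 and 48.8% ± 9.84, and the sign of that difference turned when single libraries were left out (-0.457 to 3.18 percentage points). These shares were not tested.

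A test of age on single members (limma on log2(scaled TPM + 0.5) with kit as a term, Benjamini-Hochberg over 13895 genes) called 1 of 9 tested members lower in Old, Mup17, and 0 higher; over all tested genes 2.47% were called lower and 2.44% higher. A fold on this scale understates changes of low genes. Mup10 reached 0.5 TPM in 3 libraries, short of the 8 required, and was not tested. All 9 tested members had a negative log2 difference (49.1% of all tested genes did) and all 9 had an unadjusted p under 0.05 in limma (11.6% of all tested genes did, on the lower side). In 8 of the 9, at least 9 of 10 Old livers lay under the Young median (11.4% of all tested genes). The median log2 difference of the 9 was -1.63, against 0.00 over all tested genes. Without Old replicate 14 it was -1.15, against 0.01 over all tested genes. Single members then stood at -1.94 (Mup7) to -0.41 (Mup20), with Mup11 at -1.72, Mup1 at -1.15, Mup2 at -0.66 and Mup21 at -0.62. The members share sequence and possibly reads, so these are not 9 separate observations.

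Mup17, a member of the near-identical group, was the one called. Its level was 303.6 at the lowest, 710.3 at the median and 1496 at the highest of 8 Young livers, and 6.04, 167.1 and 376.9 in the 10 Old livers. In 9 of 10 Old livers it was below the lowest Young liver, and the tenth, Old replicate 15, lay in the lower part of the Young range. Mup17 fell by 2.42 ± 0.59 on the log2 scale (SE, 95% interval -3.66 to -1.18, limma adjusted p = 0.0272). Leaving out Old replicate 14 gave -1.89 ± 0.35 (limma adjusted p = 0.00601). The call was lost without Young replicate 1 (limma adjusted p = 0.0546), Young replicate 10 (0.0564) or Young replicate 12 (0.0513), which had 921.2, 1013 and 1496 scaled TPM of Mup17, while the difference stayed at -2.41, -2.39 and -2.23.

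Mup14, also of the near-identical group, was the member whose groups did not overlap. It ranged from 502.7 over a median of 606 to 1121 in Young and from 9.9 over 254.5 to 473.9 in Old livers. Every Old liver was below every Young liver, which was true of 0.202% of all tested genes on the lower side. The log2 difference was -2.06 ± 0.60 and missed the threshold (limma adjusted p = 0.057), and without Old replicate 14 it was -1.51 ± 0.36 and passed (limma adjusted p = 0.0199). Old replicate 14 had the lowest of these levels.

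Mup7 had the largest log2 difference among the tested members, -2.55 ± 0.78 (limma adjusted p = 0.0649). Its lowest, median and highest levels were 1561, 2301 and 5924 in Young and 21.8, 868.4 and 2304 in Old livers. In 8 of 10 Old livers it was below the lowest Young value. Mup11 ranged from 151.3 to 883.1 with a median of 264.9 in Young and from 6.97 to 233.5 with a median of 105.3 in Old livers. The log2 difference of Mup11 was -2.18 ± 0.65 (limma adjusted p = 0.0597), with 6 of 10 Old livers below the lowest Young one. Mup1 stood at 133.2, 283.9 and 558.8 in Young and at 7.47, 132.6 and 327.7 in Old livers (lowest, median, highest). Its log2 difference was -1.63 ± 0.62 (limma adjusted p = 0.124), and 5 of 10 Old livers lay within the Young range.

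The 3 members with the most distinct sequence had log2 differences of -1.06 to -0.65. Mup3, the most abundant member, stood at 11781, 14699 and 22863 in Young and at 1030, 10220 and 15511 in Old livers (lowest, median, highest), with 8 of 10 Old livers below the lowest Young one. At the median it ranked 6 among all genes in Young and 12 in Old livers by level per length. Its log2 difference was -0.96 ± 0.38 (limma adjusted p = 0.139), and -0.59 ± 0.17 without Old replicate 14, which passed (limma adjusted p = 0.044). Mup20, the pheromone darcin, stood at 8367, 11932 and 13824 in Young and at 2272, 7158 and 13297 in Old livers. For Mup20, 5 of 10 Old livers were below the lowest Young one, and the other 5 lay inside the Young range. The log2 difference of Mup20 was -0.65 ± 0.30 (limma adjusted p = 0.192), and -0.41 with a 95% interval of -0.85 to 0.02 without Old replicate 14. Mup21, nearest to Mup3 in sequence, ranged from 260.3 over 423.7 to 568.8 in Young and from 18.5 over 249.6 to 466.6 in Old livers. That difference was -1.06 ± 0.44 (limma adjusted p = 0.156).

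The 2 faintest members were Mup2 and Mup10. Mup2 had 3.22, 5.56 and 7.02 scaled TPM in Young and 0.45, 3.19 and 4.79 in Old livers (lowest, median, highest). All 10 Old livers were below the Young median, and the log2 difference was -0.88 ± 0.26 (limma adjusted p = 0.0609). Mup10 had 14 to 44 reads in Young and 2 to 15 in Old livers, or 0.301 to 0.875 and 0.0343 to 0.34 scaled TPM. In 7 of 10 Old livers Mup10 was below the lowest Young one. With no filter on low values Mup10 was called (log2 difference -0.51 ± 0.10, limma adjusted p = 0.012; 1.96% of all genes were called lower there), and at these levels the added 0.5 compresses the fold. With 2.3% of its 100-base stretches found nowhere else, the level of Mup2 is the least certain.

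Removing single Old libraries changed how many members passed. The test called 4 of 9 lower without Old replicate 14 (Mup2, Mup3, Mup14 and Mup17), and 3.35% of all tested genes. Without Old replicate 6 it called 5 (Mup2, Mup7, Mup11, Mup14 and Mup17; 2.85% of all genes), without Old replicate 17 the same 5 names (2.81%), and without Old replicate 16 it called 3 (Mup11, Mup14 and Mup17; 3.27%). These 3 mice were RNeasy libraries with Mup14 at 464.9, 473.9 and 310.7 scaled TPM, above the Old median of 254.5. Old replicate 15 (RNeasy, 409.9) and Old replicate 5 (AllPrep, 359.1) were above that median too. Leaving out either one still called 1 member, Mup17, with 211 and 366 of 13895 tested genes called lower. Without Young replicate 1, 10 or 12 it called 0 of 9, while 1.41%, 1.32% and 1.6% of all tested genes were called lower. In these fits 8, 7 and 8 members had an unadjusted p under 0.05 in limma, as did 10.6%, 10.4% and 11.1% of all tested genes on the lower side.

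Values within each kit stand beside the pooled ones. Within AllPrep, 7 of 9 tested members had all 5 Old livers below all 3 Young livers (6.02% of all tested genes did), and 4 of 9 were called: Mup2, Mup3, Mup14 and Mup17 (0.403% of all tested genes were called lower there). Mup17 stood at 921.2 to 1013 in the 3 Young and at 102.4 to 220.6 in the 5 Old AllPrep livers, a log2 difference of -2.65 ± 0.21 (limma adjusted p = 0.0014). Mup20 stood at 8367 to 13780 and at 4927 to 8648 there, with a log2 difference of -1.04 ± 0.26 (limma adjusted p = 0.102).

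Within RNeasy, limma called 0 of 9 members (1 had an unadjusted p under 0.05, Mup17 at 0.0467; 0.0432% of all tested genes were called lower). Mup14 alone of the 9 had all 5 Old RNeasy livers below all 5 Young ones (1.62% of all tested genes did). With Old replicate 14 left out, 4 Old RNeasy livers remained against 5 Young ones. The log2 differences were then 0.10 for Mup20 (95% interval -0.30 to 0.51), -0.15 for Mup3 (-0.51 to 0.21) and 0.02 for Mup1 (-0.79 to 0.83), and none of these passed (0.209% of all tested genes were called lower there). Those of Mup14 and Mup17 were -0.58 (-1.05 to -0.10) and -1.24 (-2.40 to -0.09), with limma adjusted p-values of 0.293 and 0.352. The log2 difference of the family sum there was -0.10.

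A test of whether the age difference itself differed between kits called 0 of 9 members, and 0.0% of all genes (limma, 0 of 9 at an unadjusted p under 0.05). It still called 0 without Old replicate 14 (0.0216% of all tested genes), while 8 of 9 members had an unadjusted p under 0.05 and in all 9 the log2 difference was higher in RNeasy than in AllPrep, by 0.74 to 3.07 (limma adjusted p from 0.337 to 0.603). At that unadjusted threshold and in that direction, 4.0% of all tested genes stood. Kit went with body weight among Old mice: the clamp weight was 47.3 ± 5.53 g in the 5 AllPrep and 38.8 ± 4.28 g in the 5 RNeasy mice (SD), with overlapping ranges of 39.5 to 55 g and 35.1 to 45.5 g. The lightest Old AllPrep mouse, Old replicate 5 at 39.5 g, had a family sum of 17894, and the heaviest Old RNeasy mouse, Old replicate 15 at 45.5 g, had 26422; the part of weight in the kit difference was not tested. With clamp weight as a further term limma called 0 of 9 members (1 at an unadjusted p under 0.05, 0.0% of all tested genes called lower), and Mup17 stood at -2.98 ± 1.06 (limma adjusted p = 0.262). Young mice weighed 26.6 to 34.8 g and Old mice 35.1 to 55 g, with no overlap, so that age and weight cannot be told apart there.

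**Figure D3:**
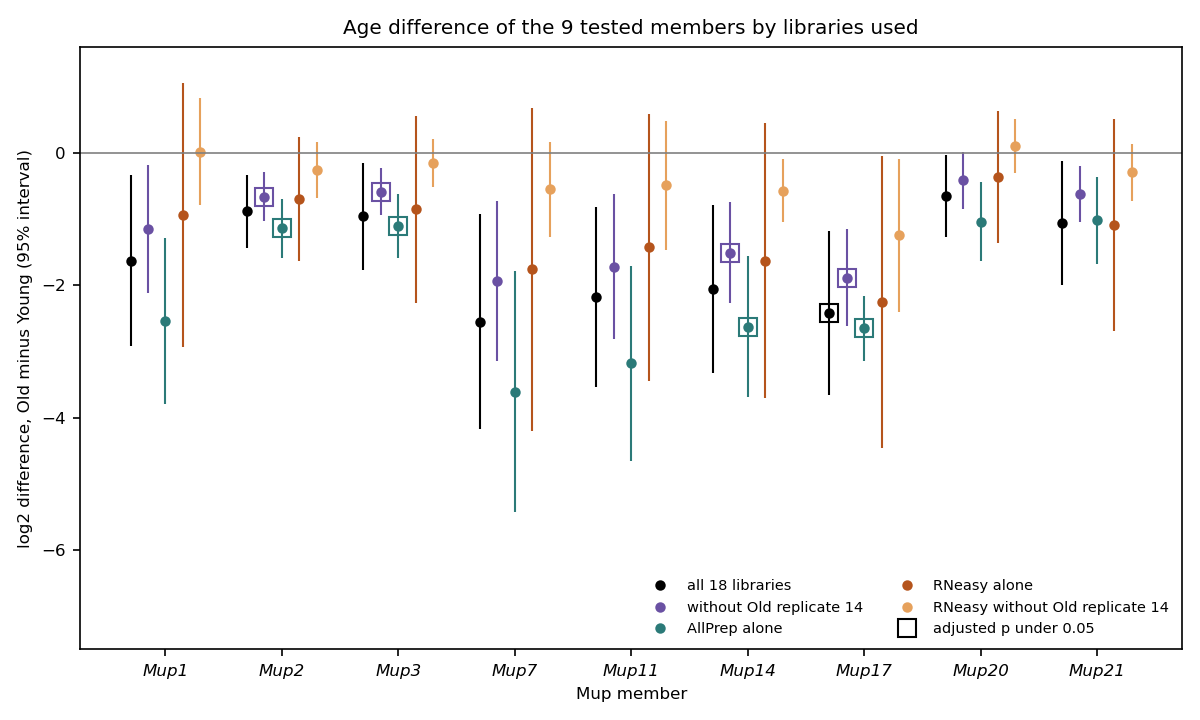
Log2 difference, Old minus Young, of the 9 tested members with its 95% interval from limma, for 5 sets of libraries (colours), with a square around values whose adjusted p was under 0.05. AllPrep values are the lowest for 8 of the 9 members, and the RNeasy values without Old replicate 14 lie closest to 0.

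Levels of Mup20 were set against 2 traits within each age. Its coding sequence had the lowest identity to a nearest member, 91.3%, though Mup3 and Mup21 were less like most other members. Against clamp weight, Pearson's r was -0.11 in Young (exact permutation p = 0.779, n = 8) and -0.16 in Old mice (permutation p = 0.649, n = 10), and Spearman's rho was -0.29 (exact permutation p = 0.501) and -0.22 (permutation p = 0.543). Against the percent suppression of glucose production by insulin, r was 0.43 in Young (exact permutation p = 0.28, n = 8) and -0.20 in Old mice (permutation p = 0.568, n = 10), and rho was 0.26 (exact permutation p = 0.536) and -0.08 (permutation p = 0.837). None of the 4 relations passed (two-sided permutation p adjusted over the 4 relations 0.779 for each r, 0.723 to 0.837 for rho). Without the 2 mice farthest from the median of the trait, r was 0.60 and -0.23 for weight and 0.20 and -0.67 for suppression, in Young and Old. Leaving out Old replicate 14, r in Old mice was -0.38 for weight (permutation p = 0.313, exact, n = 9) and -0.06 for suppression (exact permutation p = 0.862). With 8 and 10 mice, these p-values do not show that no relation exists.

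Livers high in one member tended to be high in the others. Across the 18 livers, Spearman's rho between pairs of members was 0.47 to 0.95 with a median of 0.79 over 45 pairs, a description only, since the points share libraries and the genes may share reads. Among Mup1, Mup2, Mup7, Mup11, Mup14 and Mup17 it was 0.76 to 0.95. Within Young mice alone it was -0.17 to 0.95 over all pairs (n = 8), with a median of 0.29 for pairs that hold Mup3, Mup20 or Mup21 and 0.88 among those 6 others. Within Old mice without Old replicate 14 the medians were 0.68 and 0.77 (n = 9).

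Mup17 was lowest beside Mup14 in a single mouse. The log2 ratio of Mup17 to Mup14 was -0.73 at the lowest, -0.21 at the median and 0.68 at the highest of the Young livers, and -2.45, -0.12 and 0.66 in the Old livers. The lowest was Old replicate 17, with 86.7 scaled TPM of Mup17 (4995 reads) and 473.9 of Mup14 (27659 reads), while the next lowest Old liver had a ratio of -0.989. In that mouse Mup3 was the highest of all Old livers, 15511 scaled TPM. Old replicate 14, with a ratio of -0.712, had both genes low, at 6.04 and 9.9 scaled TPM. The mean ratio was 0.08 ± 0.52 in the 5 Old AllPrep livers (SD). In the 5 Old RNeasy livers, which include Old replicate 17, it was -0.87 ± 0.96 (SD). Spearman's rho of Mup17 with Mup14 was 0.81 in Young mice (n = 8) and 0.32 in Old mice without Old replicate 14 (n = 9).

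**Figure D4:**
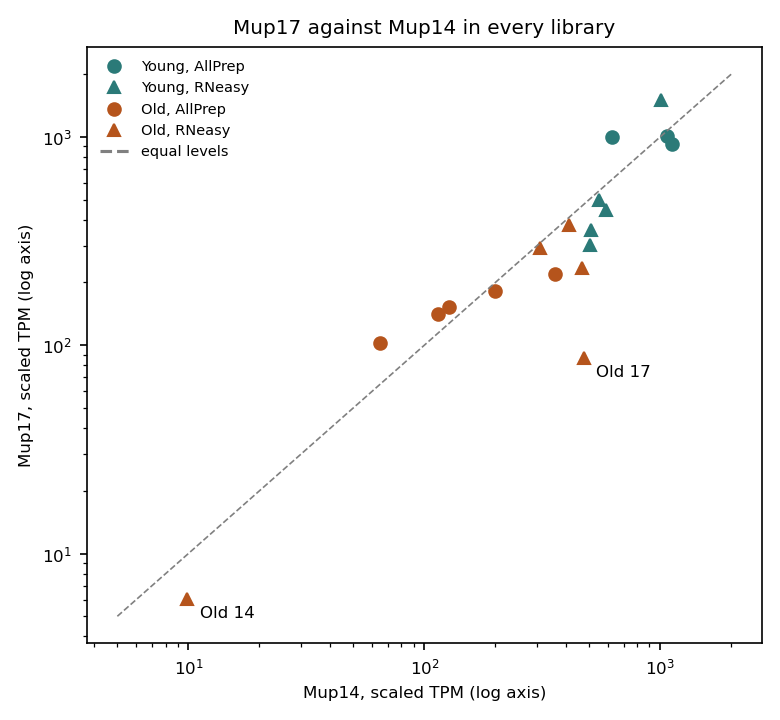
Level of Mup17 against Mup14 in every library (both log axes, scaled TPM), with colour for age, shape for kit and a dashed line of equal levels. Old replicate 17 lies below the others, at 86.7 of Mup17 for 473.9 of Mup14, and Old replicate 14 sits at the low end of the line.

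In the hormone pathway that acts on the family, the receptor and its kinase were not called. Of 13 tested genes of growth hormone signalling, 2 were called higher and 2 lower (2.44% and 2.47% of all tested genes), with a median log2 difference of -0.02. The receptor gene Ghr had 254.7 ± 35.1 scaled TPM in Young and 267.2 ± 70.0 in Old livers (SD, limma adjusted p = 0.906), but 87.9 in Old replicate 14 against 249.4 to 342 in the other Old livers. Igf1, the growth hormone target whose product circulates as IGF-1, had 230.9 ± 17.8 and 193.2 ± 60.0 (limma adjusted p = 0.33), with 43.7 in Old replicate 14 against 165.1 to 265.9. The mouse with the lowest Mup levels also had the lowest Ghr and Igf1 of all 18, but not every gene of the list was low there.

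Jak2 (log2 difference 0.10, limma adjusted p = 0.483), Stat5b (0.16, 0.326) and Cish, a feedback inhibitor induced by Stat5 (-0.57, 0.2), were not called. Socs2, another such inhibitor, fell by 0.98 ± 0.20 (SE, limma adjusted p = 0.0126), and Socs3, an inhibitor of cytokine signals, fell by 1.68 ± 0.25 (limma adjusted p = 0.00277). Stat5a, the close relative of Stat5b, rose by 0.43 ± 0.11 (limma adjusted p = 0.0361). Bcl6, a repressor known to bind near Stat5 sites of male liver, rose by 1.40 ± 0.37 on the log2 scale (limma adjusted p = 0.0386), from 11.3 ± 7.49 in Young to 29.1 ± 12.6 scaled TPM in Old livers (SD). In Old replicate 14 the 2 inhibitors induced by Stat5 were the highest of the Old livers. Socs2 had 3.33 scaled TPM there against 0.761 to 3.02 in the other Old livers, and Cish 4.17 against 1.18 to 4.03. Bcl6 was the lowest of the Old livers there, 9.92 against 13.3 to 45.8.

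Of 16 transcription factors tied to Mup genes or to male-biased liver expression, 0 were called higher and 1 lower (2.44% and 2.47% of all tested genes), Cebpb, a liver factor of the C/EBP family (-0.90 ± 0.15, limma adjusted p = 0.00375). Leaving out Old replicate 14 added 1 called higher, Foxa2, a forkhead factor of liver (0.43, limma adjusted p = 0.0415; 3.67% of all tested genes were called higher there). Hnf4a, the main hepatocyte nuclear receptor, had a log2 difference of -0.15 (limma adjusted p = 0.313), with 258.6 scaled TPM in Old replicate 14 against 344.4 to 437.2 in the other Old livers. Nr3c1, the glucocorticoid receptor, stood at 0.05 (limma adjusted p = 0.731), Onecut1, a hepatocyte factor of the Cut family, at 0.00 (0.997) and Zhx2, a repressor of several liver genes, at 0.05 (0.728).

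Many other genes known to be higher in male liver were lower in Old livers too. Of 19 tested, 10 were called lower and 0 higher in Old livers (2.47% of all tested genes were called lower). The median log2 difference of the 19 was -1.27. With no composition factor 7 were called lower, and so were 188 of 13895 tested genes. Without Old replicate 14 limma called 13 lower (3.35% of all tested genes). Within AllPrep libraries alone limma called 9 of the 19 lower (0.403% of all tested genes), and within RNeasy libraries alone 0 (0.0432%). Gstp1, a glutathione transferase with a near-identical copy in the genome, fell by 1.33 ± 0.17 on the log2 scale (limma adjusted p = 0.000894), the proteoglycan gene Cspg5 by 1.03 ± 0.18 (0.0055), Ugt2b38, a glucuronidating enzyme, by 2.52 ± 0.50 (0.0102) and the carboxylesterase gene Ces4a by 0.89 ± 0.19 (0.0137). Of 13 tested genes known to be higher in female liver, 5 were called higher in Old and 0 lower (2.44% of all tested genes were called higher), with a median of 0.46. Of those not called, Cyp2b10, Cyp2a4 and A1bg had positive log2 differences. Negative ones were seen for Cyp4a14 (-0.86, limma unadjusted p = 0.0242), Fmo2 (-0.51, limma unadjusted p = 0.0139), Cyp2c40 (-0.79), Cyp2c69 (-0.69) and Acot3 (-0.18). Without Old replicate 14, 6 were called higher (3.67% of all tested genes). Within AllPrep libraries alone limma called 2 of the 13 higher, and within RNeasy libraries alone 0. Over all 13895 tested genes 101 and 6 were called higher there. The cytochrome Cyp2b9 rose by 4.72 ± 0.85 (limma adjusted p = 0.00589), the sulfotransferase gene Sult2a7 by 1.84 ± 0.33 (0.00615), Rtn4, which shapes the endoplasmic reticulum, by 0.70 ± 0.14 (0.0123) and the peroxisomal transporter Abcd2 by 1.09 ± 0.26 (0.0246). Cyp2b9 had 0.0324 to 0.909 scaled TPM in Young livers and at least 1.11 in every Old liver. It met the filter through the Old livers, so that filter favoured a call on the higher side. Cyp2a4, called without Old replicate 14 (limma adjusted p = 0.044), had 0.261 to 0.613 in Young livers. At such Young levels the added 0.5 weighs on the fold.

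Relatives of the family by protein fold and other secreted proteins were looked at in the same fit. Of 9 tested other lipocalin genes, limma called 0 (2 had an unadjusted p under 0.05, Orm3 at 0.0266 with a log2 difference of 0.97 and Obp2a at 0.0331 with -1.24), with a median log2 difference of 0.01. Of 22 other abundant secreted proteins of hepatocytes, 1 was called lower and 0 higher (2.47% and 2.44% of all tested genes), with a median of 0.03: Serpina1e, a copy of the alpha-1-antitrypsin genes, fell by 1.43 ± 0.40 (limma adjusted p = 0.0486). That call was lost with no composition factor, where 0 of the 22 were called; without Old replicate 14 limma called 2 lower, Serpina1e (-1.14, adjusted p = 0.0423) and the protease inhibitor gene Serpina3k (-0.69, adjusted p = 0.0151; 3.35% of all tested genes).

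**Figure D5:**
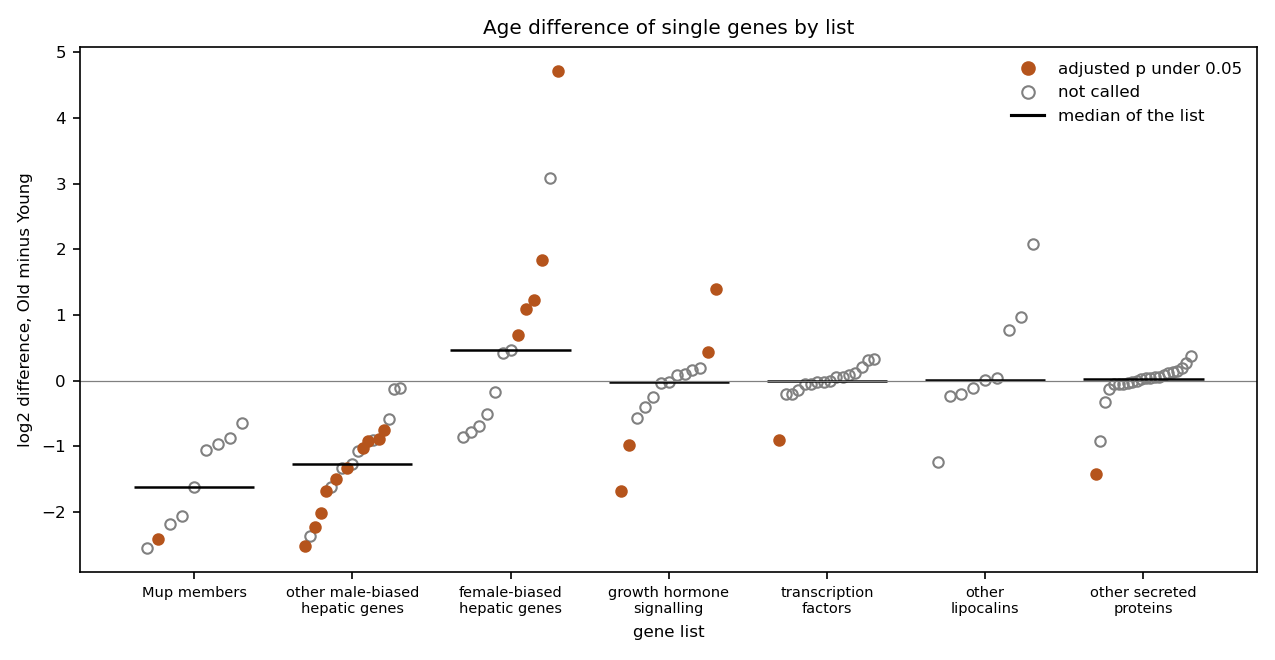
Log2 difference, Old minus Young, of each tested gene in 7 lists, with filled points for an adjusted p under 0.05 and a line at the median of the list. The medians are -1.63 for the Mup members and -1.27 for the other male-biased genes, against 0.01 for other lipocalins and 0.03 for other secreted proteins.

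Outside the family, the 5 genes whose level ordered the 18 livers most like the family sum were Ugt2b38 (Spearman's rho 0.94), the oxysterol hydroxylase gene Cyp7b1 (0.94), the steroid dehydrogenase gene Hsd3b5 (0.92), Serpina3k (0.91) and Pdhx, of the pyruvate dehydrogenase complex (0.90), among 8756 genes whose mean log2 level reached 2. Without Old replicate 14 rho was 0.93, 0.93, 0.90, 0.89 and 0.88. Within Young mice it was 0.90, 0.81, 0.55, 0.79 and 0.57 (n = 8). The points share libraries and age groups, and the genes were picked for this likeness. Cyp7b1 had 363.8 ± 122.4 scaled TPM in Young and 131.6 ± 72.9 in Old livers (SD), and its log2 difference was -1.68 ± 0.38 (limma adjusted p = 0.0199).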

How the data were processed

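The members and gene lists were chosen with earlier results of these data known. The deposited values are TPM, which the authors scaled so that each library sums to 1000000 over 18946 genes. Per the submitters' processing notes, the tools were STAR 2.7.9a, featureCounts and Subread, and the builds named, with no role for each, were GRCm39 and mm10. The sources used here do not give gene lengths, strand or multi-mapping settings.

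Libraries were brought to one scale with trimmed means of log ratios (30% of ratios and 5% of levels dropped on either side). The fit was made in limma 3.58.1 (R 4.3.3) on log2(scaled TPM + 0.5) with a variance trend, age and kit, for genes that reached 0.5 TPM in 8 or more libraries, and was tested on simulated data. Calls have a Benjamini-Hochberg adjusted p under 0.05. Whole reads were recovered for 18946 of 18946 genes, within 2e-08 of a whole number; a limma-voom fit of these reads called 319 genes higher and 334 lower. The precision of a level follows these depths and covers counting error only. No pair of libraries of one age agreed within sampling noise (lowest chi-square per degree of freedom 39.8).

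Named are all 10 members, up to 4 called genes with the smallest p from each pathway list, 10 preset growth hormone and factor genes, and the 5 genes most like the family sum. Alternatives covered kit, libraries left out, scaling, filter, pseudocount, library weights, clamp weight and limma-voom. Python 3.11.15 with numpy 2.4.6, scipy 1.17.1 and pandas 2.3.3 was used for the rest, and matplotlib 3.10.9 for plots.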

Additional observations from a re-analysis of the deposited data

Results flagged for a closer look

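Of 24 sets of values checked for a library far from the others of its age (the 10 members, the family sum and the ratio of Mup17 to Mup14, in each age), 1 stood out. Levels and sums were checked as scaled TPM, and only the ratio on the log2 scale. On a log2 scale low levels stand farther apart, and the outcome of this check depends on that choice. Old replicate 14 was lowest in all 10 members, and was not singled out on the scale used. Its Mup3, for example, stood at 1030, with 7551 in the next lowest and 15511 in the highest Old liver. The check therefore does not show that Old replicate 14 was like the other Old livers. Chance alone would single out about 1 in 20. The log2 ratio of Mup17 to Mup14 was -2.45 in Old replicate 17, and its gap to the next lowest Old liver, at -0.989, was 0.469 of the whole Old range, just past the critical value of 0.466 for 10 libraries. The highest Old ratio was 0.664.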

How the results depend on the processing

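No paired analysis was possible because no replicate number occurs in both ages. The count of members called lower was 1 with all libraries. It ranged from 0 to 5 when single libraries were left out (0 without Young replicate 1, 10 or 12, and 5 without Old replicate 6 or 17). It was 4 in AllPrep libraries alone (0.403% of all tested genes were called lower) and 0 in RNeasy libraries alone (0.0432%). With library weights it was 4, and 697 of 13895 tested genes were called lower. With no filter it was 2 (1.96% of all genes), and with clamp weight as a further term it was 0 (0.0% of all tested genes). It was 1 with no kit term, each other scaling, each other pseudocount and limma-voom on recovered reads. The log2 difference of the family sum, -0.94, ranged from -1.04 to -0.68 with single libraries left out, and was -0.10 in RNeasy libraries without Old replicate 14, a setting chosen after seeing the data. There Mup1 (0.02) and Mup20 (0.10) changed sign. The sum over all 20 Mup genes gave -0.96 and recovered reads relative to the library total -0.93, both also chosen after seeing the data. The count of members called for a difference between kits was 0 in all settings run. The cause of these shifts was not tested. Depth limits Mup10, with 2 to 44 reads per library, and reads shared between copies limit the members of the near-identical group.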

Other observations

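The table also held 10 other Mup genes, which together with the members made the sum of 20. The members carried 95.9% ± 1.39 of that sum in Young (SD, n = 8) and 97.3% ± 0.792 in Old livers (SD, n = 10). Of the other 10, 9 were tested and limma called 6 lower in Old and 0 higher (2.47% and 2.44% of all tested genes): Mup6, Mup8, Mup9, Mup15, Mup16 and Mup18, named after their values were seen. Mup15 fell by 2.46 ± 0.66 on the log2 scale (SE, limma adjusted p = 0.0414) and Mup9 by 2.00 ± 0.51 (0.0331). Without Old replicate 14 limma called 7 of 9 (3.35% of all tested genes were called lower), in AllPrep libraries alone 8 (0.403%) and in RNeasy libraries alone 0 (0.0432%).

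In Old replicate 17, where Mup17 was low beside Mup14, 3 other genes of the cluster were low as well, chosen after seeing their values. Mup15 stood at 101 scaled TPM (5989 reads) against 285.3 to 399.6 in the 3 other Old RNeasy livers apart from Old replicate 14. Mup18 stood at 8.43 against 34.8 to 59.9, and Mup9 at 1.89 (112 reads) against 4.44 to 17.2. Mup1, Mup7 and Mup11 in that mouse, at 218.6, 2304 and 233.5 scaled TPM, were not low. The difference was not tested.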
